A study of Mus musculus with 9 samples.

Results

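Levels of 10 genes of NRF2 signalling and glutathione synthesis were read from liver arrays of 9 mice in 3 groups. The genes were listed by name (Nfe2l2, Keap1, Gclc, Gclm, Gss, Gsr, Nqo1, Txnrd1, Srxn1 and Slc7a11), and all 10 were among the 19938 genes measured, each through a single probe set. The 3 rescue mice carried the Clock-D19 mutation and at week 10 had received 35 µg of a pLIVE plasmid that expresses wild-type Clock, injected hydrodynamically through the tail vein. The 3 Clock mutant mice carried the Clock-D19 mutation, a splicing change that leaves a CLOCK protein able to pair with BMAL1 but poor at activating genes. The 3 wild-type mice were C57BL/6J. All 3 groups ate a 45% fat diet for 5 weeks from 10 weeks of age, were kept on a cycle of 12 h light and 12 h dark, and were killed at zeitgeber hour 10, so no lean or other-hour animals enter these comparisons. The labels describe no control injection of the mutant or wild-type mice, so plasmid and injection cannot be told apart in the rescue group. The pLIVE vector is built for expression in liver, and hydrodynamic injection reaches mainly hepatocytes; every cell of the rescue mice still carries the mutation.

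NRF2, the product of Nfe2l2, is the transcription factor that switches on genes against oxidants and electrophiles. KEAP1 holds it in the cytoplasm and presents it to a CUL3 ubiquitin ligase, so NRF2 activity is set largely at the protein level and need not show in Nfe2l2 RNA. Glutathione is made from glutamate, cysteine and glycine: GCLC, with its modifier GCLM, joins the first pair in the rate-limiting step, GSS adds glycine, and GSR returns oxidised glutathione to its reduced form. Liver is the main exporter of glutathione to blood. In mouse lung, CLOCK has been reported to act on Nfe2l2 through an E-box.

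NRF2 with a small MAF partner binds the antioxidant response element, whose core can be written TGACNNNGC. The genes were therefore looked up in RefSeq promoter windows of build GRCm38.p6, which run from 250 bases before to 50 bases after each start. Windows were present for 8 of the 10 genes, all but Gclc and Gsr, with 10 windows in all. On either strand the core was found in 4 of these windows, those of Nfe2l2, Gclm, Srxn1 and the second of 3 Txnrd1 windows, while 12.4% of all 32851 windows hold it. The canonical E-box CACGTG, to which CLOCK and BMAL1 bind and which does not overlap the other motif, was in 0 of the 10 windows and in 7.15% of all windows. The stretches with the core are shown because these are the letters through which NRF2 could act close to the start. They are written 5′ to 3′ on the gene's strand, with the match in capitals (on the opposite strand in Gclm, Txnrd1 and Srxn1). They lie at chr2:75704854-75704913 (minus strand), chr3:122245398-122245457 (plus strand), chr10:82859089-82859148 (plus strand) and chr2:152105542-152105571 (plus strand).
Nfe2l2: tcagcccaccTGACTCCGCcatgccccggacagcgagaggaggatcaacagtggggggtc
Gclm: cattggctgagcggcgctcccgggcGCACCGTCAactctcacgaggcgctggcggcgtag
Txnrd1: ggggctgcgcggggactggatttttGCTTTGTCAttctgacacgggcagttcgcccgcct
Srxn1: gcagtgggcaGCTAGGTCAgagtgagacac
The match begins 240 bases before the start in Nfe2l2, 134 before it in Gclm and 92 before it in Txnrd1, and at base 29 after the start in Srxn1. A match is a description of the letters and not a site of binding, and these windows leave out distal elements.

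The arrays read liver in every group, with 13 hepatocyte markers at a mean log2 level of 11.59 to 11.86 in rescue, 11.88 to 11.90 in mutant and 11.61 to 11.86 in wild-type livers. Clock itself, which has not been separated here into mutant and plasmid transcripts, lay between 9.41 and 10.33 in rescue, 9.89 and 10.88 in mutant and 9.24 and 9.97 in wild-type livers on the log2 scale. Of 18 genes that CLOCK and BMAL1 activate, 16 fell in mutant against wild-type livers, where 9.02% of all genes fell. In rescue against mutant livers 4 rose and 1 fell (2.61% and 1.2% of all genes). In rescue against wild-type livers 1 rose and 12 fell (0.928% and 1.35%). Among 1027 olfactory receptor genes, which stand in for genes that liver does not use, the median log2 level was 4.14 to 4.33 per array. Arrays give no read depth, and the number of mice limits the precision.

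Gclc, of glutathione synthesis, and Gsr, of its recycling, were the only genes of the 10 that passed in any comparison. That a gene did not pass does not show that its level was unchanged. Gclc rose in rescue livers against both other groups, by 1.43-fold against mutant and 1.44-fold against wild-type livers. Gsr was 1.32-fold lower in mutant than in wild-type livers and 1.32-fold higher in rescue than in mutant livers. The regulator genes Nfe2l2 and Keap1 and the classical NRF2 target Nqo1 passed in no comparison. In the mutant against wild-type comparison 1 of 10 genes was called (limma, adjusted p under 0.05 over all genes), where 15.4% of all genes were called, so this count is not above the background. The call was lower, as for 9.02% of all genes, and 0 of the 10 were called higher, against 6.37% of all genes. In rescue against mutant 2 of 10 were called, where 3.81% of all genes were; both were higher (2.61% of all genes) and 0 lower (1.2%). In rescue against wild type 1 of 10 was called, where 2.28% of all genes were; it was higher (0.928% of all genes) and 0 were lower (1.35%). Each pair of these comparisons shares 1 group of mice.

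Values of the groups did not overlap for 4 of the 10 genes in mutant against wild type, where 35.7% of all genes did not overlap. Of these, Gss and Txnrd1 were higher (20.3% of all genes) and Gclm and Gsr lower (15.4%). In rescue against mutant livers 3 did not overlap (25.7% of all genes), namely Gclc, Gsr and Srxn1, all higher (11.8%) and 0 lower (14.0%). In rescue against wild-type livers 4 did not overlap (19.5% of all genes), namely Gclc, Gss, Txnrd1 and Srxn1, all higher (8.95%) and 0 lower (10.5%).

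**Figure D1:**
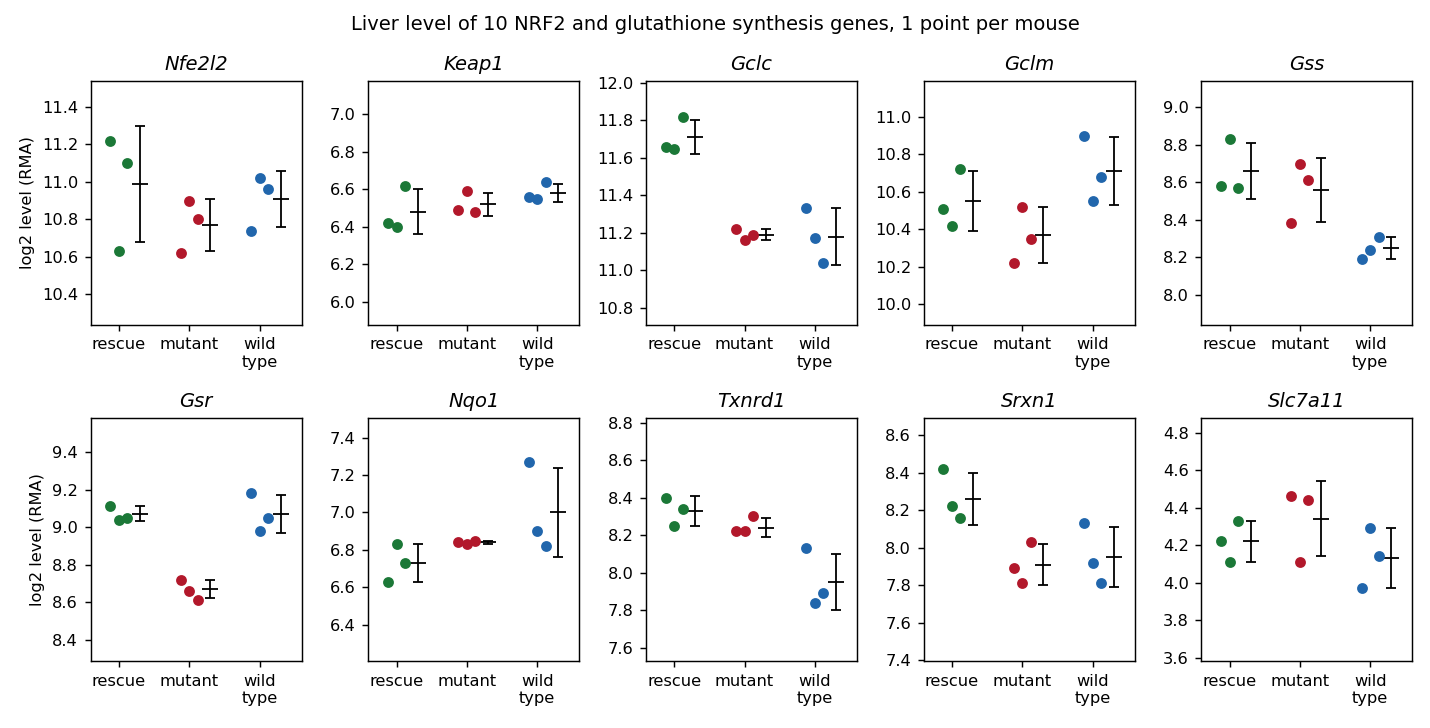
Log2 level (RMA) of each of the 10 genes on the vertical axis, with rescue, Clock mutant and wild-type livers from left to right, 1 point per mouse, and black bars for the mean ± SD of 3 mice. Every panel spans the same log2 range around the gene's own mean. Gclc stands high in the 3 rescue livers (11.65 to 11.82) and Gsr low in the 3 mutant livers (8.61 to 8.72).

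Gclc encodes the catalytic subunit of glutamate-cysteine ligase, the enzyme of the rate-limiting step. Its log2 level was 11.66, 11.65 and 11.82 in rescue livers, 11.22, 11.16 and 11.19 in mutant livers, and 11.33, 11.17 and 11.04 in wild-type livers. The 3 rescue livers were above all 6 others, and the mutant values fell inside the wild-type range. On the log2 scale Gclc was 0.52 ± 0.11 (SE) higher in rescue than in mutant livers (limma adjusted p = 0.0201, n = 3 per group) and 0.53 ± 0.11 higher in rescue than in wild-type livers (adjusted p = 0.0162). The mutant minus wild-type difference was 0.01 ± 0.11, with a 95% interval of -0.21 to 0.24 (adjusted p = 0.946). The size of the rise kept between 0.46 and 0.61 when single arrays were left out. The call against mutant was nevertheless lost without mutant replicate 1 (0.53, adjusted p = 0.0601), 2 (0.50, 0.0541) or 3 (0.52, 0.0549) and without rescue replicate 2 (0.54, 0.0508) or 3 (0.46, 0.0829), and the call against wild type without rescue replicate 3 (0.47, 0.0894) or wild-type replicate 3 (0.46, 0.0842).

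Gclm encodes the modifier subunit, which raises the affinity of GCLC for glutamate. The level of Gclm was 10.51, 10.42 and 10.72 in rescue livers, 10.22, 10.52 and 10.35 in mutant livers, and 10.90, 10.55 and 10.68 in wild-type livers. All 3 mutant livers lay below the lowest wild-type liver, by as little as 10.52 against 10.55, and rescue livers overlapped both groups. The mutant minus wild-type log2 difference of -0.35 ± 0.13 did not pass (limma adjusted p = 0.0777). It passed with each array centred on its median (-0.42, adjusted p = 0.0334), with a trended and robust prior (-0.35, 0.0347), with array weights (-0.38, 0.0428) and without the dimmest 40% of genes (-0.35, 0.0466). The difference was 0.18 ± 0.13 for rescue minus mutant (adjusted p = 0.42) and -0.16 ± 0.13 for rescue minus wild type (adjusted p = 0.65).

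The catalytic subunit was also set against the modifier subunit within each array, a measure added after the orders of the groups had been seen. Log2 Gclc minus log2 Gclm, relative to the wild-type mean, was 0.68, 0.77 and 0.62 in rescue livers, 0.53, 0.17 and 0.37 in mutant livers, and -0.04, 0.15 and -0.11 in wild-type livers. The groups did not overlap, with rescue highest and wild type lowest, although the lowest mutant and the highest wild-type liver were close (0.17 and 0.15). Mean differences were 0.69 for rescue minus wild type, 0.36 for mutant minus wild type and 0.33 for rescue minus mutant. Each had an exact permutation p of 0.1 (two-sided, n = 3 per group), the smallest that 3 against 3 allows and the value that any groups without overlap would give. These values are a description of the 9 arrays, and a change in Gclm itself was not shown in any comparison.

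**Figure D2:**
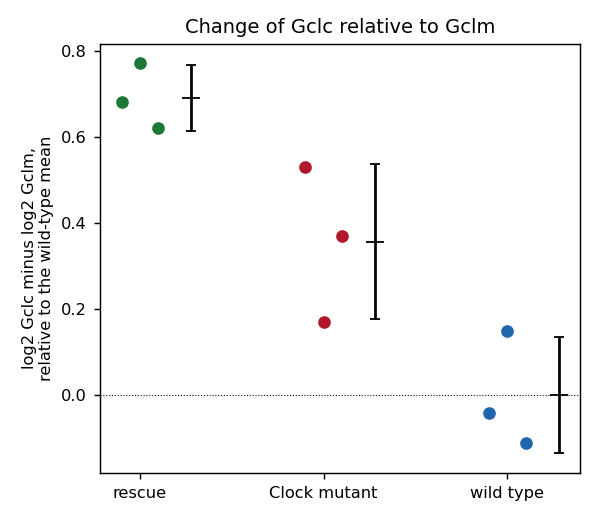
Log2 level of Gclc minus log2 level of Gclm on each array, relative to the wild-type mean (vertical axis), in rescue, Clock mutant and wild-type livers, 1 point per mouse, with mean ± SD of 3 mice. Rescue livers lie between 0.62 and 0.77, mutant livers between 0.17 and 0.53 and wild-type livers between -0.11 and 0.15.

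Gss encodes glutathione synthetase, which completes the tripeptide. Its log2 level was 8.58, 8.83 and 8.57 in rescue livers, 8.38, 8.70 and 8.61 in mutant livers, and 8.19, 8.24 and 8.31 in wild-type livers. Every mutant and rescue liver was above every wild-type liver, and mutant and rescue livers overlapped. No comparison passed: the difference was 0.31 ± 0.12 for mutant minus wild type (limma adjusted p = 0.0807), 0.41 ± 0.12 for rescue minus wild type (0.0855) and 0.09 ± 0.12 for rescue minus mutant (0.673). Without the dimmest 40% of genes the first pair passed (adjusted p = 0.0463 and 0.0439), and rescue minus wild type also passed with a trended and robust prior (0.0418). Mutant minus wild type passed without mutant replicate 1 as well (0.41, adjusted p = 0.0491).

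Gsr encodes glutathione reductase, which uses NADPH to keep glutathione reduced. The log2 level of Gsr was 9.11, 9.04 and 9.05 in rescue livers, 8.72, 8.66 and 8.61 in mutant livers, and 9.18, 8.98 and 9.05 in wild-type livers. The 3 mutant livers were below all others, and rescue livers lay within the wild-type range. Gsr fell by 0.40 ± 0.10 in mutant against wild-type livers (limma adjusted p = 0.0133, n = 3 per group) and rose by 0.40 ± 0.10 in rescue against mutant livers (adjusted p = 0.039). The rescue minus wild-type difference was -0.00079 ± 0.10, with an interval of -0.21 to 0.21 (adjusted p = 0.998). The fall in mutant livers was lost as a call without mutant replicate 3 (-0.38, adjusted p = 0.0509) or wild-type replicate 1 (-0.35, 0.0601). The rise in rescue livers was lost without any 1 of the 6 arrays compared (0.38 to 0.43, adjusted p = 0.0824 to 0.106) and with those 6 arrays fitted alone (0.40, 0.0569). In whole liver, fewer cells of a type and less RNA per cell cannot be told apart.

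Markers of other liver cells also differed between the groups. Among 18 endothelial markers 11 fell in mutant against wild-type livers (9.02% of all genes) and 4 rose in rescue against mutant livers (2.61%). Their mean log2 level was 7.54 to 7.86 in rescue, 7.37 to 7.41 in mutant and 7.88 to 8.01 in wild-type livers. Among 18 Kupffer cell and macrophage markers 12 fell in mutant livers (9.02% of all genes). In rescue against mutant livers 1 rose and 1 fell (2.61% and 1.2% of all genes). The mean level of this list was 6.84 to 7.09 in rescue, 6.75 to 6.86 in mutant and 7.31 to 7.73 in wild-type livers. Among 16 markers of stellate cells and fibroblasts, 5 fell and 1 rose in mutant livers (9.02% and 6.37% of all genes). In rescue against mutant livers 4 rose (2.61% of all genes). Mean levels were 7.37 to 7.44 in rescue, 7.19 to 7.28 in mutant and 7.33 to 7.47 in wild-type livers. The rises in rescue against mutant livers of the endothelial markers Kdr, Emcn, Mrc1 and Ptprb (0.45 to 0.51) and of the stellate cell and fibroblast markers Lrat, Rgs5, Dcn and Vim (0.38 to 0.62) were each lost as calls in 4 to 10 of 18 alternatives, always including without mutant replicate 1 (0.40 to 0.64, adjusted p = 0.0625 to 0.112) and without rescue replicate 1 (0.33 to 0.67, 0.053 to 0.133). By direction alone, 10 of the 16 stellate cell and fibroblast markers were higher and 6 lower in rescue than in mutant livers. For endothelial markers these counts were 16 and 2, and for Kupffer cell and macrophage markers 13 and 5. None of these 3 lists had a marker whose mean over the arrays lay below the olfactory receptor median. Gsr was at 9.07 in both rescue and wild-type livers. Against wild type, 2 of 18 endothelial, 7 of 18 Kupffer and 0 of 16 stellate cell markers fell in rescue livers, and 0 rose. Of all genes, 1.35% fell and 0.928% rose in that comparison. The part of these cells in the Gsr difference was not tested.

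Nfe2l2 encodes NRF2 itself. The log2 level of Nfe2l2 was 11.22, 10.63 and 11.10 in rescue livers, 10.62, 10.90 and 10.80 in mutant livers, and 10.74, 11.02 and 10.96 in wild-type livers. All 3 groups overlapped, and rescue had the widest spread of any of the 10 genes in any group (SD 0.31). The differences were -0.13 ± 0.15 for mutant minus wild type (95% interval -0.45 to 0.18, limma adjusted p = 0.559), 0.21 ± 0.15 for rescue minus mutant (-0.10 to 0.53, adjusted p = 0.42) and 0.08 ± 0.15 for rescue minus wild type (-0.23 to 0.39, adjusted p = 0.878). The first and second intervals reach past the 0.40 measured for Gsr, so equal levels are not shown.

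Keap1 encodes the sensor that marks NRF2 for degradation. Its log2 level was 6.42, 6.40 and 6.62 in rescue livers, 6.49, 6.59 and 6.48 in mutant livers, and 6.56, 6.55 and 6.64 in wild-type livers. The groups overlapped in all 3 comparisons. No difference exceeded 0.11 in size: -0.06 ± 0.10 for mutant minus wild type (limma adjusted p = 0.708), -0.04 ± 0.10 for rescue minus mutant (0.834) and -0.11 ± 0.10 for rescue minus wild type (0.726).

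Nqo1, a quinone reductase gene often used as a readout of NRF2, had log2 levels of 6.63, 6.83 and 6.73 in rescue livers, 6.84, 6.83 and 6.85 in mutant livers, and 7.27, 6.90 and 6.82 in wild-type livers. The mutant livers were nearly equal to each other, wild-type replicate 1 stood above the rest, and mutant and wild type overlapped. Differences were -0.16 ± 0.12 for mutant minus wild type (limma adjusted p = 0.398), -0.11 ± 0.12 for rescue minus mutant (0.642) and -0.27 ± 0.12 for rescue minus wild type (0.335). Without wild-type replicate 1 the mutant minus wild-type value was -0.02. Nqo1 had no match to the response element core in its promoter window.

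Txnrd1 encodes cytosolic thioredoxin reductase, the selenoenzyme that recharges thioredoxin. Levels on the log2 scale were 8.40, 8.25 and 8.34 in rescue livers, 8.22, 8.22 and 8.30 in mutant livers, and 8.13, 7.84 and 7.89 in wild-type livers. As for Gss, each mutant and rescue liver was above each wild-type liver. The difference was 0.29 ± 0.11 for mutant minus wild type (limma adjusted p = 0.0775), 0.38 ± 0.11 for rescue minus wild type (0.0801) and 0.09 ± 0.11 for rescue minus mutant (0.666), and none passed. With quantile normalization repeated both comparisons with wild type passed (0.36, adjusted p = 0.0198, and 0.42, 0.0357). They also passed without the dimmest 40% of genes (adjusted p = 0.0416 and 0.0386), rescue minus wild type with a trended and robust prior (0.0453), and mutant minus wild type without wild-type replicate 1 (0.38, 0.0452).

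Srxn1 encodes sulfiredoxin, which repairs over-oxidised peroxiredoxins. Srxn1 stood at 8.42, 8.22 and 8.16 in rescue livers, 7.89, 7.81 and 8.03 in mutant livers, and 8.13, 7.92 and 7.81 in wild-type livers on the log2 scale. The lowest rescue liver (8.16) was just above the highest wild-type liver (8.13), and mutant and wild type overlapped. Rescue minus mutant was 0.35 ± 0.12 (limma adjusted p = 0.105), rescue minus wild type 0.31 ± 0.12 (0.222) and mutant minus wild type -0.04 ± 0.12 (0.836), so no comparison passed. The last value changed sign, to 0.02, with quantile normalization repeated.

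Slc7a11 encodes the cystine importer xCT. Its log2 level was 4.22, 4.11 and 4.33 in rescue livers, 4.46, 4.11 and 4.44 in mutant livers, and 3.97, 4.29 and 4.14 in wild-type livers. These values lie around the olfactory receptor median, so they need not be above background, and no direction is drawn from them. None of the 3 differences passed (0.21, -0.12 and 0.09 for mutant minus wild type, rescue minus mutant and rescue minus wild type, limma adjusted p = 0.277, 0.618 and 0.832).

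**Figure D3:**
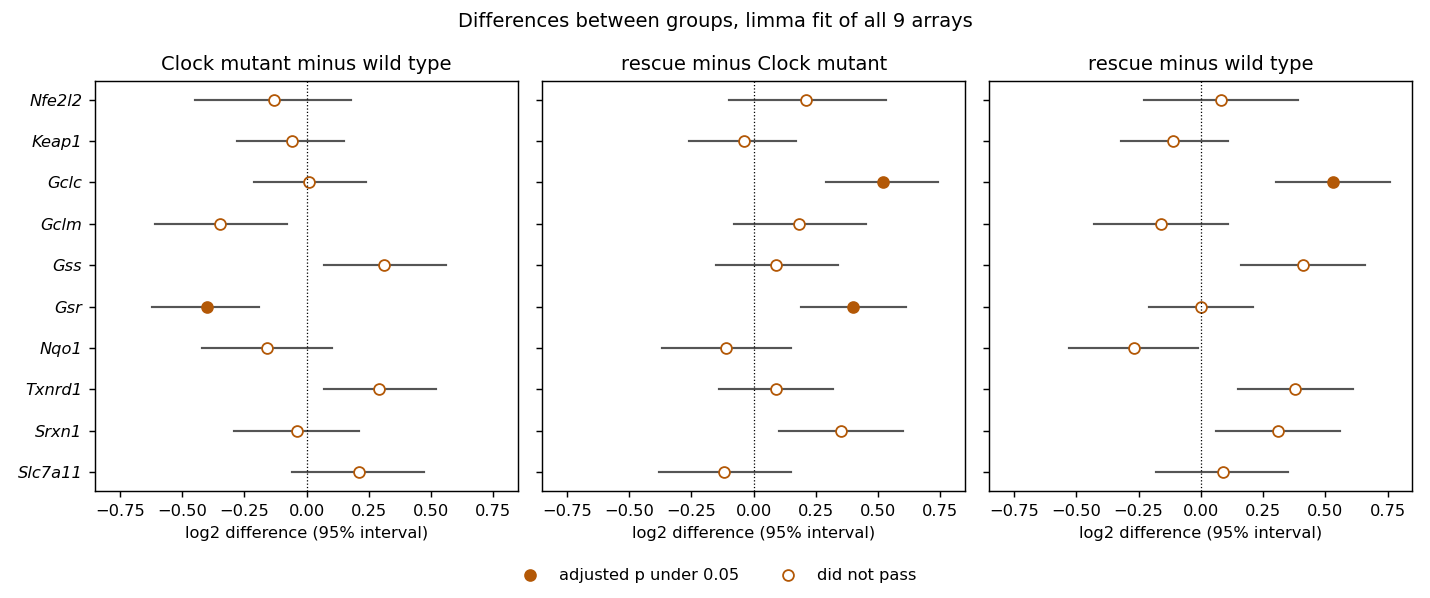
Log2 difference (point) and 95% interval (line) of each of the 10 genes from the limma fit of 9 arrays, for Clock mutant minus wild type, rescue minus Clock mutant and rescue minus wild type. Filled points passed at adjusted p under 0.05: Gsr in the first, Gclc and Gsr in the second and Gclc in the third panel.

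The order of group means was rescue, mutant, wild type for Gclc, Gss and Txnrd1, and wild type, rescue, mutant for Gclm and Gsr. For Gclc the mutant and wild-type groups were indistinguishable in that order, and for Gsr the rescue and wild-type groups were. Nfe2l2 and Srxn1 ran rescue, wild type, mutant, and Keap1 and Nqo1 ran wild type, mutant, rescue. Outside Gclc and Gsr, none of these orders rests on a difference that passed, and Slc7a11 is left out as near background. The median log2 difference of the 10 genes was -0.05 in mutant minus wild type, 0.14 in rescue minus mutant and 0.08 in rescue minus wild type, beside 0.07, -0.05 and 0.01 over all genes. The spread between mice was small, with a median SD over the 10 genes of 0.115 in rescue, 0.085 in mutant and 0.15 in wild-type livers.

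Of 15 genes for NRF2's partners and regulators, 1 rose and 3 fell in mutant against wild-type livers, where 6.37% of all genes rose and 9.02% fell. Cul3, the scaffold of the ligase that KEAP1 recruits, fell by 0.65 ± 0.09 on the log2 scale (limma adjusted p = 0.000465), with a mean of 10.94 ± 0.04 in mutant livers and 11.60 ± 0.03 in wild-type livers (SD, n = 3 each). Its rescue livers, at 11.28, 11.25 and 11.29, lay between both groups without overlap, and neither rescue comparison passed (0.33 ± 0.09 against mutant, adjusted p = 0.0628, and -0.32 ± 0.09 against wild type, 0.0933). Sqstm1, whose product p62 sequesters KEAP1, rose by 0.68 ± 0.13 (adjusted p = 0.00358). Gsk3b, a kinase that marks NRF2 for a second ligase, fell by 0.53 ± 0.11 (0.00452), and Bach1, a repressor at the same response elements, fell by 0.46 ± 0.10 (0.0089). These 4 calls held under all 18 alternatives. In rescue against mutant livers none of the 15 passed by limma's adjusted p, with 4 at an unadjusted p under 0.05. The share of all genes at that unadjusted threshold was not counted, so no excess is read from this count. In rescue against wild-type livers Sqstm1 was the gene that rose (0.56 ± 0.13, adjusted p = 0.0416). That call was lost in 10 of 18 alternatives, among them without mutant replicate 1 or 3, rescue replicate 1 or 3, or any wild-type array (0.45 to 0.63, adjusted p = 0.054 to 0.159).

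Among 26 other measured NRF2 targets, 4 rose and 2 fell in mutant against wild-type livers (6.37% and 9.02% of all genes), with a median difference of 0.07, equal to that of all genes. Gsta4, a glutathione transferase gene for lipid aldehydes, fell by 0.99 ± 0.11, to 10.29, 10.38 and 10.42 in mutant livers against 11.54, 11.17 and 11.37 in wild-type livers (limma adjusted p = 8.08e-05). It rose by 0.79 ± 0.11 in rescue against mutant livers (adjusted p = 0.00248), reaching 11.15, 11.23 and 11.09. Akr1b8, an aldo-keto reductase gene, fell by 0.70 ± 0.12 in mutant livers (0.00154) and rose by 0.53 ± 0.12 in rescue against mutant livers (0.0281). The Gsta4 calls held under all 18 alternatives. The fall of Akr1b8 held under the 17 alternatives it was run in (it is among the dimmest 40% of genes, so 1 left it out), but its rise was lost without mutant replicate 1 (0.48, adjusted p = 0.102) or 3 (0.52, 0.0767) and without rescue replicate 2 (0.56, 0.0651) or 3 (0.48, 0.106).

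Other targets went the opposite way in mutant livers. Taldo1, of the pentose phosphate pathway, rose by 0.49 ± 0.13 (limma adjusted p = 0.017), and the glutathione transferase gene Gstm4 by 0.49 ± 0.14 (0.0272). Without wild-type replicate 3 neither passed (0.38, adjusted p = 0.0868, and 0.35, 0.129), nor did they without mutant replicate 1 (0.43, 0.0696, and 0.47, 0.0767) or 3 (0.48, 0.051, and 0.48, 0.0669), and Gstm4 was also lost without wild-type replicate 2 (0.44, 0.0809), with median centring (0.41, 0.061) and with the trend over gene span removed (0.42, 0.0532). Gstm genes are close paralogues, and whether probes separate them was not tested. In rescue against wild-type livers none of the 26 passed by limma's adjusted p. An unadjusted limma p under 0.05 was found for 7 of them. The share of all genes at that threshold was not counted, so no excess is read from this count. Hmox1, which encodes heme oxygenase 1, was at -0.54 ± 0.15 (limma adjusted p = 0.0826) and Osgin1, an oxidative stress response gene, at 0.45 ± 0.14 (0.107).

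In glutathione use and breakdown, 2 of 22 measured genes rose and 2 fell in mutant against wild-type livers. These 4 calls are near the background, since 15.4% of all genes were called. Anpep, an aminopeptidase gene, fell by 0.45 ± 0.10 (limma adjusted p = 0.00936) and Glo1, whose enzyme clears methylglyoxal with glutathione, rose by 0.46 ± 0.11 (0.00939). Chac2, which encodes a glutathione-degrading enzyme, fell by 0.33 ± 0.09 (0.0287), and Gpx4, for the peroxidase that clears lipid hydroperoxides, rose by 0.35 ± 0.11 (0.0483). Glo1 also rose in rescue against wild-type livers (0.47 ± 0.11, adjusted p = 0.0323), and Gpx4 fell in rescue against mutant livers (-0.43 ± 0.11, 0.0484). Both Gpx4 calls lay at the threshold and were lost in 12 and 11 of 18 alternatives, including without any mutant or rescue array (0.31 to 0.40, adjusted p = 0.0504 to 0.143, against wild type, and -0.48 to -0.39, 0.0663 to 0.139, for rescue against mutant). The first was also lost without wild-type replicate 1 (0.34, 0.109) or 3 (0.26, 0.194), and the second without wild-type replicate 1 (-0.43, 0.0605). Chac2 was lost without mutant replicate 1 or 3 or any wild-type array (-0.35 to -0.31, adjusted p = 0.0547 to 0.0883) and with quantile normalization repeated (-0.22, 0.129). The rescue call of Glo1 was lost without any rescue array or wild-type replicate 1 or 3 (0.44 to 0.49, 0.0658 to 0.116) and with median centring (0.45, 0.0525).

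Among 18 genes that supply or use cysteine, 4 rose and none fell in mutant against wild-type livers (6.37% and 9.02% of all genes), with a median of 0.21 beside 0.07 over all genes. Cbs, the entry enzyme of transsulfuration from homocysteine toward cysteine, rose by 1.10 ± 0.18 (limma adjusted p = 0.00101). Gnmt, which consumes S-adenosylmethionine, rose by 1.01 ± 0.13 (0.000242), the neutral amino acid transporter gene Slc1a4 by 0.51 ± 0.12 (0.00929) and Csad, of taurine synthesis, by 0.41 ± 0.13 (0.0429). Csad was lost in 7 of 18 alternatives, among them without mutant replicate 1 or 3, rescue replicate 3, or wild-type replicate 1 or 3 (0.32 to 0.44, adjusted p = 0.0594 to 0.159). Cbs also rose in rescue against wild-type livers (0.86 ± 0.18, adjusted p = 0.0177), a call lost without rescue replicate 1 or 3 or wild-type replicate 2 or 3 (0.74 to 0.78, 0.0658 to 0.0947). Gnmt fell in rescue against mutant livers (-0.78 ± 0.13, 0.00839).

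Of 21 thioredoxin, peroxiredoxin and superoxide enzyme genes, 3 rose and 1 fell in mutant against wild-type livers, which is near the 15.4% of all genes called. Txnip, whose product inhibits thioredoxin, fell by 0.71 ± 0.18 (limma adjusted p = 0.0162), a call lost without mutant replicate 2 (-0.52, 0.0691) or wild-type replicate 3 (-0.68, 0.0618). The methionine sulfoxide reductase gene Msra rose by 0.47 ± 0.11 (0.0121), mitochondrial thioredoxin Txn2 by 0.48 ± 0.13 (0.0192) and Msrb1 by 0.41 ± 0.13 (0.0447). Msra was lost without wild-type replicate 3 (0.37, 0.0652), Txn2 without mutant replicate 1 or 3 or wild-type replicate 2 or 3 (0.46 to 0.47, 0.0568 to 0.0662) or with median centring (0.41, 0.0606), and Msrb1 in 9 of 18 alternatives, including without any mutant or wild-type array (0.40 to 0.42, 0.0832 to 0.118) or rescue replicate 1 (0.41, 0.0525). In rescue against mutant livers Msra fell (-0.43 ± 0.11, adjusted p = 0.049), a call lost in 10 of 18 alternatives, including without any mutant or rescue array (-0.48 to -0.37, 0.0847 to 0.138) or wild-type replicate 2 (-0.43, 0.0642). In rescue against wild-type livers none of the 21 passed by limma's adjusted p, with 2 at an unadjusted p under 0.05 (share over all genes not counted).

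**Figure D4:**
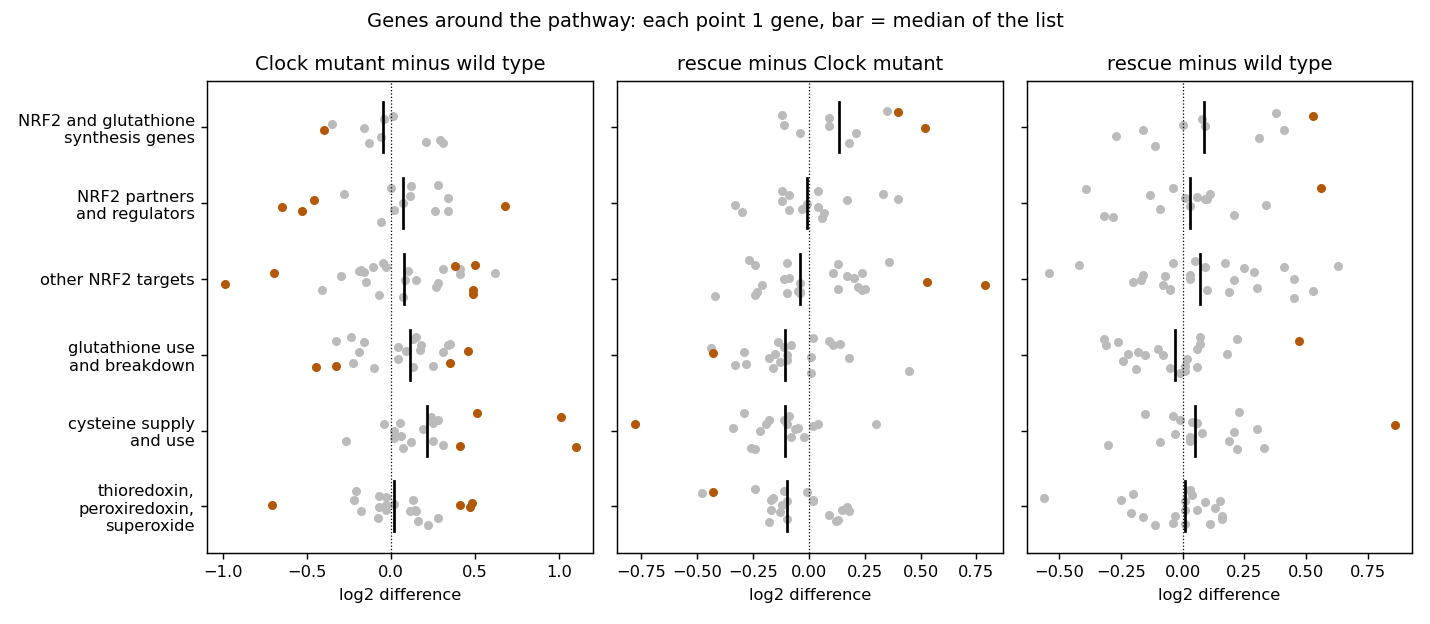
Log2 difference of every measured gene (1 point each) in the 10 genes and 5 surrounding lists, for Clock mutant minus wild type, rescue minus Clock mutant and rescue minus wild type, with orange points passing at adjusted p under 0.05, grey points not passing and a black bar at the list's median. The horizontal scale differs between panels. The cysteine list has the highest median in the first panel (0.21), and medians of the other lists there lie between -0.05 and 0.11.

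The genes whose pattern over the 9 arrays was most like that of Nfe2l2, among 11962 others outside the dimmest 40%, were Adamts5 (Pearson's r 0.95, Spearman's rho 0.967), Fads3 (0.926 and 0.9) and Pdgfra (0.919 and 0.933). Those most like Gclc were Cecr2 (0.938 and 0.933), Atxn2l (0.937 and 0.817) and Gpr65 (0.936 and 0.633). These are the top of a ranking over 9 arrays in 3 groups and carry no p.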

How the data were processed

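Liver RNA of 9 mice was read on Affymetrix gene arrays, 1 per mouse. The deposited values are log2 expression per probe set, made with RMA in Affymetrix Expression Console per the submitters' processing notes, of unstated version. RMA forces 1 distribution on all arrays, which would remove a change shared by most genes, and it shrinks differences at low levels. Base 2 was inferred from the range of the values, the highest being 13.86.

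Of 35556 probe sets, 21789 had 1 gene symbol in the platform annotation, 1621 several and 12146 none. Entrez identifiers of 21698 matched the reference table (GRCm38.p6), and 0 symbols changed. The probe set of highest mean was kept per gene, leaving 19938 genes. All 9 arrays were fitted in 1 model with limma 3.58.1 in R 4.3.3 (6 residual and 8.475 prior degrees of freedom), with Benjamini-Hochberg adjustment over all genes within each comparison; genes under 0.05 were called. The fit was checked on simulated data. Permutation tests used scipy 1.17.1 and figures matplotlib 3.10.9.

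The members and lists were chosen with earlier results of these data known. All 10 members are named; in other pathway lists, all called genes up to 4, else the 4 of smallest p, or the 2 of smallest p where none was called; for likeness, the 3 genes of highest r. Of the list symbols 4 other NRF2 targets (Gsta1, Gsta2, G6pdx, Cyp2a5), Ggt1, Ahcy, Prdx5 and Prdx6 were not analysed here. In marker lists not described in the report, mutant against wild type gave 1 fall among 13 lymphocyte and 2 falls among 8 bile duct markers by limma (9.02% of all genes). It gave 0 calls among 11 neutrophil and 0 among 2 red cell markers (15.4% of all genes were called). At an unadjusted limma p under 0.05 were 3 lymphocyte, 2 bile duct, 1 neutrophil and 1 red cell marker (share over all genes not counted). Of 13 hepatocyte markers 2 rose in mutant against wild type (6.37% of all genes). In rescue livers Ptprc of the lymphocyte list rose against mutant (1.29, limma adjusted p = 0.000344) and wild type (1.2, 0.000271), where 2.61% and 0.928% of all genes rose. Both calls held under all 18 alternatives. By direction alone, 6 of the 13 lymphocyte markers were higher and 7 lower against mutant, and 5 and 8 against wild type. Cxcr2 of the neutrophil list, which is near background, fell in rescue against wild type (-0.59, limma adjusted p = 0.0365), where 1.35% of all genes fell. That call was lost in 7 of 17 alternatives. No other hepatocyte, lymphocyte, bile duct, neutrophil or red cell marker was called in a rescue comparison. The part of these cells in the Gclc difference was not tested. The labels gave each mouse its group and number. Limma p-values weigh a group difference against the spread between these mice, moderated by the spread over all genes. Alternatives were a replicate block, a filter on dim genes, repeated quantile normalization, median centring, a trended robust prior, array weights, removal of the trend with gene span, the mean of a gene's probe sets, the 6 arrays compared alone and leaving out each array.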

Additional observations from a re-analysis of the deposited data

How the results depend on the processing

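Under 18 alternatives 537 values of the 10 genes were recomputed (Slc7a11 drops out with the dimmest 40% of genes). Of these, 491 kept direction and side of the threshold, 16 lost a call, 14 gained one and 16 changed sign. None of the values that changed sign was called. The replicate block, the filter on dim genes and the trended robust prior leave each difference unchanged by design. So do fitting only the arrays compared and leaving out an array outside the comparison. Each of the 10 genes has a single probe set, so averaging probe sets changes none of their values. These alternatives could move a call but not a direction, so the 491 overstates how far directions were tested. The sign changes outside single arrays were Gclc in mutant minus wild type (-0.06 with median centring), Srxn1 in the same comparison (0.02 with repeated quantile normalization), Keap1 in rescue minus mutant (0.02 with median centring, 0.03 with array weights, 0.03 with the span trend removed) and Gsr in rescue minus wild type (0.06 with repeated quantile normalization, 0.01 with the span trend removed). Leaving out single arrays gave -0.06 to 0.09 for Gclc and -0.11 to 0.04 for Srxn1 in mutant minus wild type, and -0.04 to 0.26 for Nfe2l2 and -0.05 to 0.05 for Gsr in rescue minus wild type.

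In mutant against wild type, 1 of the 10 genes was called: 4 without the dimmest 40% of genes (fewer genes tested), and 2 with repeated quantile normalization, median centring, a trended robust prior or array weights; 0 to 2 without single arrays. In rescue against mutant 2 were called: 1 with the 6 arrays alone, 0 to 2 without single arrays. In rescue against wild type 1 was called: 3 without the dimmest 40% of genes or with a trended robust prior, 2 with repeated quantile normalization, 0 to 1 without single arrays. Apart from the lower number of genes or arrays, the cause was not tested. Over all genes, 3068 were called in mutant against wild type (1695 to 3130 without single arrays, the lowest without wild-type replicate 3 and 2035 without mutant replicate 1), with 1270 higher and 1798 lower, but 610 and 2272 with median centring. In rescue against mutant 759 were called (520 higher, 239 lower): 1178 without the dimmest 40%, 1210 with a trended robust prior, 1334 with array weights (745 and 589), 780 and 126 with median centring, and 200 to 692 without single arrays, with at most 340 without any mutant array or rescue replicate 2 or 3. In rescue against wild type 454 were called: 711 without the dimmest 40%, 704 with a trended robust prior, 233 to 501 without single arrays.

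Same-numbered mice of different groups had correlations of -0.111 to 0.191 between their deviations from the group means, so the replicate numbers are not taken to pair the animals. With the replicate number as a block 3368 genes were called in mutant against wild type, 931 in rescue against mutant and 507 in rescue against wild type, and no call of the 10 genes changed (1, 2 and 1). Slc7a11 lies near background, which limits what its values show.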
